A study of Mus musculus with 19 samples.

Results

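The 8 genes described here encode chemokines measured in C2C12 mouse myoblasts: Ccl2, Ccl7, Cxcl1, Cxcl2, Cxcl5, Cxcl10, Cxcl12 and Cxcl13. They were chosen by name, as chemokine genes of these cells and with earlier results of these data known, from 55401 gene identifiers. All 8 were among the 18039 genes that passed the filter on low counts. Chemokines are small secreted proteins that bind receptors on other cells and draw those cells along a gradient. Muscle precursor cells secrete several of them, and after muscle injury they take part in bringing neutrophils and monocytes into the tissue. Transcription of many chemokine genes responds to NF-kB, a transcription factor held in the cytoplasm by its inhibitors until a signal releases it.

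C2C12 is an immortalised line of wild-type mouse myoblasts, so all groups share 1 line. RNA of 19 libraries in 7 groups was read by sequencing of polyadenylated RNA. Cells had the vehicle DMSO or 100 nM thapsigargin for 2 h (3 libraries each), 6 h (3 each) or 12 h (2 each). Thapsigargin blocks SERCA, the pump that fills the calcium store of the endoplasmic reticulum. In the recovery group (3 libraries) 6 h of thapsigargin were followed by 48 h in medium without it. No vehicle group was kept for that total time, and the effects of recovery and of longer culture cannot be told apart. The labels do not say that replicates were separate cultures, and if they were not, p-values cover only technical spread.

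Gene reads per library lay between 31.66 and 40.96 M at 2 and 6 h, between 17.31 and 21.83 M at 12 h and between 23.59 and 38.31 M in recovery. Mitochondrially encoded RNA took 15.8% of the reads of DMSO replicate 3 at 2 h and 14.9% of recovery replicate 1, against 1.41% to 3.07% elsewhere. Long transcripts (exons of at least 7026 bases) stood above short ones (up to 2922 bases) by 0.49 to 1.11 on the log2 scale, relative to the mean of all libraries, at 2 and 12 h. At 6 h and in recovery that difference ran from -1.51 to 0.03. All 8 myoblast markers had counts in every group, and their sum was 861 to 1016 counts per M reads (CPM) at 12 h against 1914 to 5396 CPM in the other groups. The macrophage markers Adgre1 and Itgam had no count in any library, and all 8 leukocyte markers together made 2.45 to 11.2 CPM.

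The genes lie in clusters. On GRCm38, Ccl2 (ENSMUSG00000035385.5, chr11:82035571-82037453) and Ccl7 (ENSMUSG00000035373.2, chr11:82045712-82047525) are neighbours with 8.3 kb between them, both on the forward strand. On chromosome 5 Cxcl5 (ENSMUSG00000029371.7, chr5:90759360-90761624) lies 129.6 kb before Cxcl1 (ENSMUSG00000029380.11, chr5:90891241-90893115), and 10.8 kb separate Cxcl1 from Cxcl2 (ENSMUSG00000058427.10, chr5:90903871-90905938). Cxcl10 (ENSMUSG00000034855.13, chr5:92346638-92348889, reverse strand) and Cxcl13 (ENSMUSG00000023078.6, chr5:95956951-95961068) are farther along the same chromosome. Cxcl12 (ENSMUSG00000061353.11, chr6:117168535-117181367) stands by itself on chromosome 6. The exons of Cxcl10 share 133 bases with Art3, which is read from the opposite strand. The counting's use of strand is not given in the sources used here, so reads from those bases cannot be told apart.

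Upstream sequences are shown for Cxcl1, which was higher under the drug at 2 and 12 h, and for its neighbour Cxcl2, which had no read in DMSO. They are also shown for Cxcl10, which was higher at all 3 times, and for Cxcl12, which was lower at 6 and 12 h. They are RefSeq sequences of build GRCm38.p6, which held entries for 5 of the 8 genes, read 5′ to 3′ on the gene's strand up to the base before the first annotated exon. They cover chr5:90890995-90891240 (forward), chr5:90903649-90903870 (forward), chr5:92348890-92349139 (reverse) and chr6:117168285-117168534 (forward). Ccl2, Ccl7 and Cxcl5 are named only, and the window of Cxcl13 was searched but is not shown. Capitals mark letters that match a motif of NF-kB (GGG, a purine, any base, 3 pyrimidines, CC), the interferon-stimulated response element (ISRE, GAAA followed 2 bases later by GAAA) or AP-1 (TGANTCA).
Cxcl1: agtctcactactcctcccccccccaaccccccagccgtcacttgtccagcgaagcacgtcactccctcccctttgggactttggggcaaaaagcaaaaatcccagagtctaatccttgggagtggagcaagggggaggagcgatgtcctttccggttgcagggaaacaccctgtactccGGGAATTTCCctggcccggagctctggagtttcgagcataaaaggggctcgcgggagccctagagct
Cxcl2: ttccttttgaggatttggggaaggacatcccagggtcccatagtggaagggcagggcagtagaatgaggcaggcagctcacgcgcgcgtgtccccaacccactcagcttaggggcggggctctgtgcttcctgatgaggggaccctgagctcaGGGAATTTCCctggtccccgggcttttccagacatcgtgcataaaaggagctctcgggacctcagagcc
Cxcl10: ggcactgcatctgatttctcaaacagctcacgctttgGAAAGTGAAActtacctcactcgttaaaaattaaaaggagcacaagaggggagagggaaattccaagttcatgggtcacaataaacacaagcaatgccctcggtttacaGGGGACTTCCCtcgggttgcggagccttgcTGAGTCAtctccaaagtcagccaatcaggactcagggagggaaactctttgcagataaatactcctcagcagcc
Cxcl12: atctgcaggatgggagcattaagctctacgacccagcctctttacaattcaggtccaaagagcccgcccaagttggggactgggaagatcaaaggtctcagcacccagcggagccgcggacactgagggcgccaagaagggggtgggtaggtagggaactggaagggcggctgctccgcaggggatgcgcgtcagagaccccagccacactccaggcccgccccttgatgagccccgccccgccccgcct

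Both strands were searched, and an AP-1 match reads the same way on either. The windows of Cxcl1 and Cxcl2 held the same NF-kB match, GGGAATTTCC, which began 71 bases before the RefSeq start site of Cxcl1 and 97 bases before that of Cxcl2. It is part of a run of 14 bases, GGGAATTTCCCTGG, the longest that these windows share. The Cxcl10 window held 2 NF-kB matches that overlap, GGGGACTTCC and GGGACTTCCC, which begin 104 and 103 bases before the start. In a looser NF-kB form, which lets any base stand in place of the first pyrimidine, GGGAAATTCC (159 bases before the start, left in lower case) matches too. The window also held 1 ISRE match (GAAAGTGAAA, 213 bases before the start) and 1 AP-1 match (TGAGTCA, 74 bases before). The Cxcl12 window held no match to these 3 motifs, nor to a C/EBP site (TTGCNNAA) or a C/EBP-ATF response element (TGATGNAA). The Cxcl13 window held 1 C/EBP match and none to the other motifs. Of all 32851 RefSeq windows of 250 bases, 5.0% held an NF-kB match (7.25% in the looser form), 2.98% an ISRE match, 6.75% an AP-1 match, 9.56% a C/EBP match and 3.45% a C/EBP-ATF match. A match is a description of letters and does not show a bound factor.

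The level of the 8 genes together differed widely between groups. Their summed level was 61.4 ± 2.57 CPM in DMSO at 2 h and 176 ± 17.5 in thapsigargin (SD, n = 3 each). At 6 h it was 49.6 ± 6.06 CPM in DMSO and 34.7 ± 0.956 in thapsigargin, and in recovery 121 ± 25.5 (n = 3 each). The sums of 1403 ± 21.5 CPM in DMSO and 1621 ± 122 in thapsigargin at 12 h (n = 2 each) lay far above those of all other groups.

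**Figure D1:**
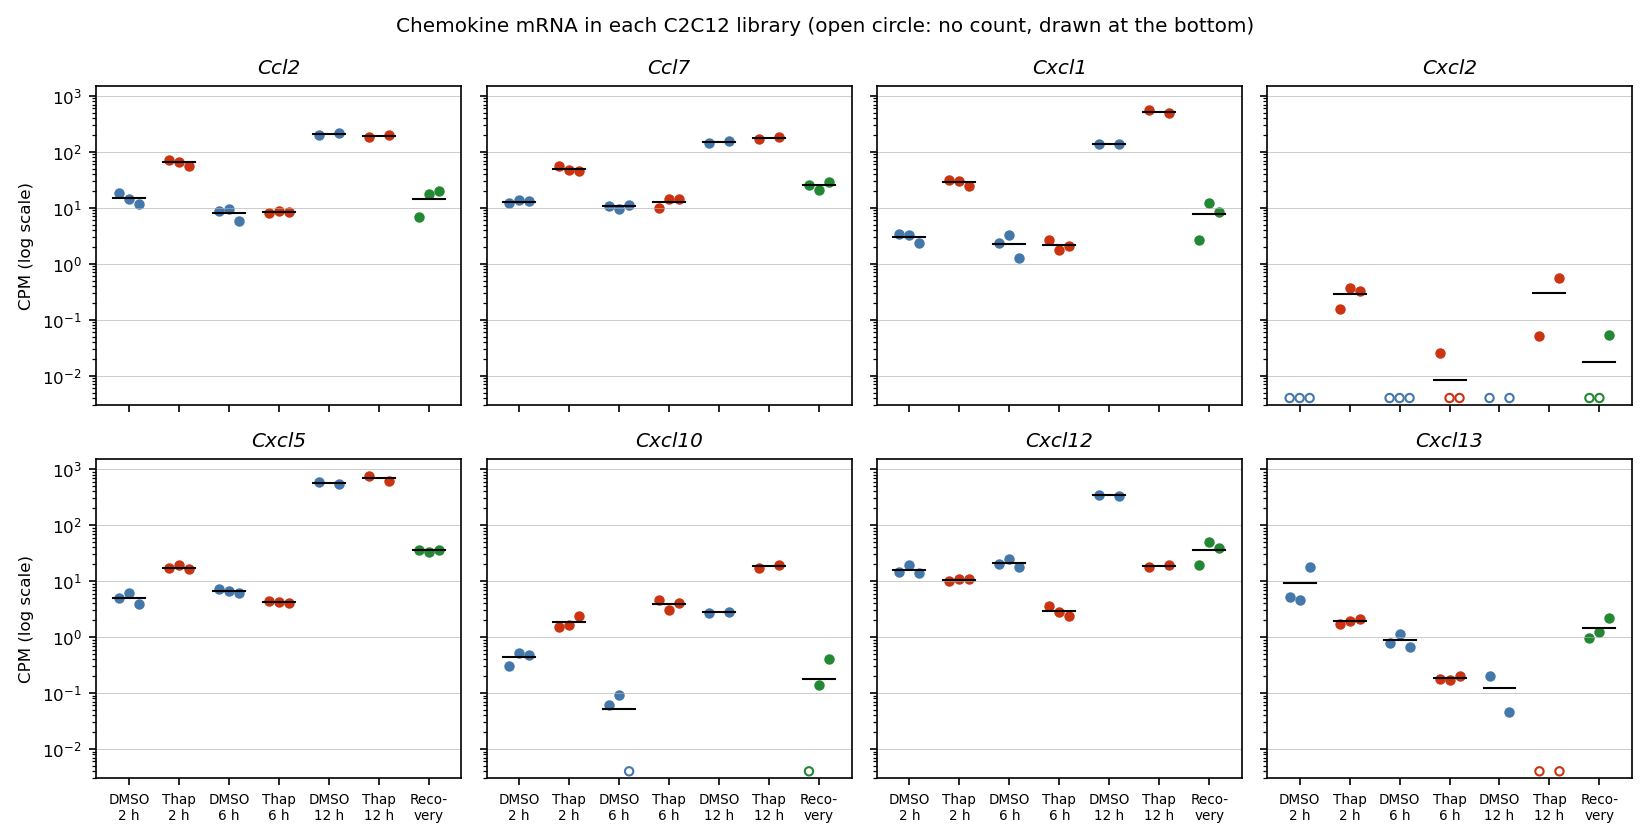
Level of each chemokine mRNA in every library, in CPM on a log axis, with DMSO in blue, thapsigargin (Thap) in red, recovery in green, black lines for group means and open circles at the bottom for libraries without a count. Apart from Cxcl2, Cxcl10 and Cxcl13, the 12 h libraries of DMSO stand above every library of 2 h, 6 h and recovery, and Cxcl12 drops from 339 CPM in DMSO to 18.5 CPM in thapsigargin at 12 h.

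Divided by exon length, Ccl7 had the highest level in 5 groups, with 13.2 ± 1.03 CPM per kb in DMSO at 6 h and 62.3 ± 7.36 in thapsigargin at 2 h. Ccl2 followed with 7.06 ± 1.78 and 56.7 ± 7.71 CPM per kb. The ranges of the pair overlapped at 2 h and not at 6 h. At 12 h Cxcl5 ranked first, with 306 ± 20.8 CPM per kb in DMSO and 373 ± 52.5 in thapsigargin. Cxcl1 was second in thapsigargin at 12 h (278 ± 24.9 CPM per kb) and the fourth in DMSO (74 ± 0.593), with no overlap with its neighbours in either order. Cxcl2 was last in 6 groups, and Cxcl13 was last in thapsigargin at 12 h, without a count.

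In DMSO at 2 h the order was Ccl7, Ccl2, Cxcl13, Cxcl5, Cxcl12, Cxcl1, Cxcl10 and Cxcl2, and neighbours overlapped from Ccl7 to Cxcl13 and from Cxcl5 to Cxcl1. In recovery it was Ccl7, Cxcl5, Ccl2, Cxcl12, Cxcl1, Cxcl13, Cxcl10 and Cxcl2, with overlaps from Ccl2 to Cxcl13 and between Cxcl10 and Cxcl2. Per kb, Ccl2 and Ccl7 together held most of the summed level at 2 and 6 h (29.7% and 37.0% in DMSO at 2 h). Cxcl5 took 38.8% and Cxcl1 9.4% in DMSO at 12 h, against 35.5% and 26.5% in thapsigargin. Cxcl10 took 5.94% in thapsigargin at 6 h and 0.0803% in DMSO.

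**Figure D2:**
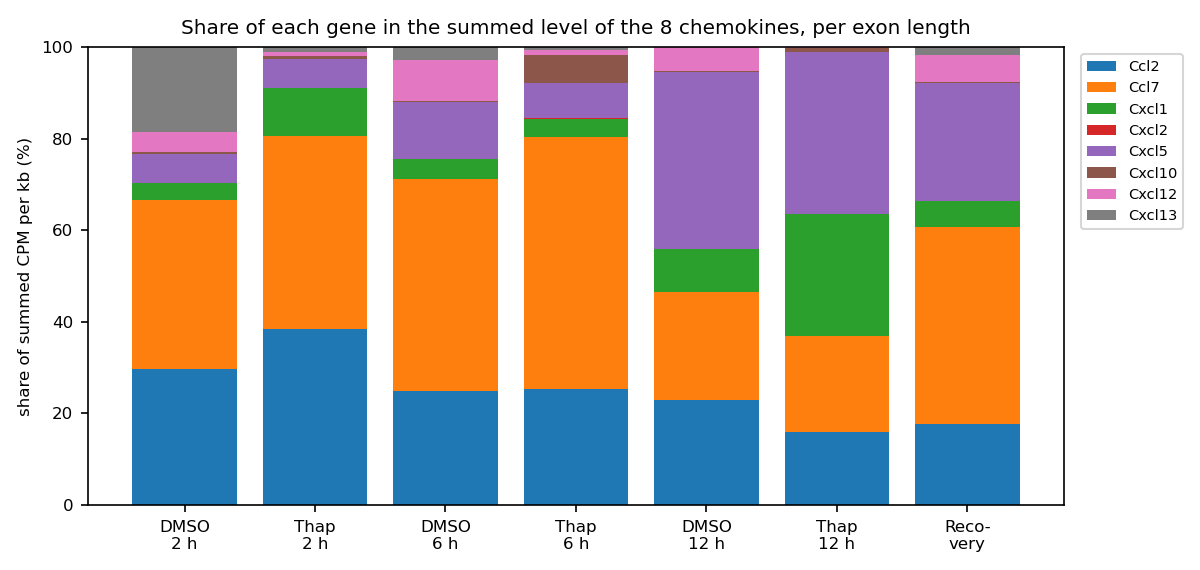
Share of each gene in the summed CPM per kb of exon of the 8 chemokines, in percent, from group means (Thap, thapsigargin). Ccl2 and Ccl7 fill most of each bar up to 6 h, and Cxcl5 fills 38.8% of the DMSO bar at 12 h.

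At 2 h the monocyte attractants Ccl2 and Ccl7 and the neutrophil attractants Cxcl1 and Cxcl5 were higher under thapsigargin. Of the 7 genes with reads in both groups 5 rose, Cxcl13 fell and Cxcl12 did not pass the test (edgeR's quasi-likelihood test, Benjamini-Hochberg adjusted p under 0.05), while 4.52% of all genes tested were called (3.01% higher, 1.51% lower). The median log2 difference of these 7 was 1.95, against -0.04 for all genes. Cxcl2 passed the filter on low counts through thapsigargin libraries alone and is described by its reads. In bulk RNA, a change in the number of cells that make an mRNA and a change in the amount per cell cannot be told apart. The 6 markers of differentiated muscle summed to 120 to 169 CPM in DMSO and 71.7 to 85.6 in thapsigargin, with the mean of each marker lower under the drug, and the myoblast markers to 2458 to 2986 against 1914 to 1924 CPM. Leukocyte markers summed to 3.83 to 11.2 against 2.45 to 3.31 CPM, with Adgre1, Itgam and Tyrobp without a count. The part of these in the chemokine differences was not tested.

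Ccl2, the ligand of the monocyte receptor CCR2, stood at 18.2, 14.4 and 11.6 CPM in DMSO and at 71.9, 66.9 and 54.8 CPM in thapsigargin. All drug libraries lay above all vehicle libraries, by 4.38-fold on average (log2 difference 2.13 ± 0.31 SE, adjusted p = 0.0007). Ccl7, a relative of Ccl2 that also acts on monocytes, went from 12.1, 13.7 and 13.0 CPM to 56.5, 48.1 and 45.1 CPM. The 2 groups did not overlap, and the rise was 3.86-fold (1.95 ± 0.18, adjusted p = 1.3e-05).

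Cxcl1, which attracts neutrophils through the receptor CXCR2, had 3.42, 3.25 and 2.37 CPM in DMSO and 31.8, 30.6 and 24.1 CPM in thapsigargin. Its rise of 9.56-fold (3.26 ± 0.43, adjusted p = 0.00029) was the highest among the genes with counts in every library compared. Cxcl5, another CXCR2 ligand, went from 5.02, 6.05 and 3.93 CPM to 17.0, 19.1 and 16.4 CPM, a rise of 3.5-fold (1.81 ± 0.18, adjusted p = 2e-05). Cxcl2, the third CXCR2 ligand of the list, had no read in DMSO and 7, 16 and 12 reads in thapsigargin. With a floor of 3 counts per library (0.0833 CPM) it was at least 3.42-fold higher. Its adjusted p of 0.043 is not counted as a call, since the filter kept it for its reads under the drug, and it was not among the genes tested with a stricter filter or with only these groups. Per length it reached 0.138 CPM per kb, against 15.4 for its neighbour Cxcl1.

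Cxcl10, an interferon-induced ligand of CXCR3, a chemokine receptor on T cells, stood at 0.304, 0.528 and 0.474 CPM in DMSO and at 1.53, 1.67 and 2.42 CPM in thapsigargin. It rose 4.28-fold without overlap (2.10 ± 0.49, adjusted p = 0.022). Cxcl13, which attracts B cells, had 5.11, 4.69 and 18.2 CPM in DMSO against 1.73, 1.93 and 2.12 CPM in thapsigargin. The highest of these, 18.2 CPM, came from the DMSO library with 15.8% mitochondrially encoded RNA, and all DMSO libraries lay above all drug libraries (-2.27 ± 0.50, adjusted p = 0.016). Cxcl12, a constitutively made ligand of CXCR4 that keeps stem cells in place and guides migrating muscle precursors, had 14.3, 19.8 and 13.7 CPM in DMSO and 9.98, 11 and 10.9 CPM in thapsigargin. Its groups did not overlap, but the difference of -0.59 ± 0.27 did not pass (adjusted p = 0.28).

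Ccl2, Ccl7, Cxcl1 and Cxcl5 kept their calls under each of 16 alternatives. Leaving out any single library ended the call for Cxcl10 (adjusted p between 0.055 and 0.096). Without replicate 3 of DMSO, Cxcl13 stood at -1.34 (adjusted p = 0.082), and its call also ended without replicate 1 (0.095), 2 (0.078) or 3 (0.067) of thapsigargin and with total counts as the scale (0.06). Cxcl12 passed without the 2 libraries of high mitochondrial share (-0.62, adjusted p = 0.046) and with a correction for exon length (-0.63, 0.041).

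At 6 h a different set of the 8 differed between drug and vehicle: none of Ccl2, Ccl7 and Cxcl1 passed the test. Cxcl10 rose, Cxcl5, Cxcl12 and Cxcl13 fell, and 4 of the 8 did not pass, while 21.8% of all genes tested were called (13.0% higher, 8.80% lower). The median log2 difference was -0.08 over the 7 genes for which a fold can be given, against 0.01 for all genes. Ccl2 stood at 8.7, 9.65 and 5.77 CPM in DMSO and at 8.14, 8.75 and 8.44 CPM in thapsigargin. Ccl7 had 10.9, 9.65 and 11.2 CPM against 10.0, 14.2 and 14.3 CPM, and Cxcl1 2.35, 3.27 and 1.26 CPM against 2.7, 1.74 and 2.1 CPM. In each of these 3 genes the groups overlapped, with log2 differences of 0.07 ± 0.30, 0.28 ± 0.18 and -0.08 ± 0.41 (adjusted p = 0.91, 0.31 and 0.93). Cxcl2 had a single read in 1 of the 6 libraries.

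Cxcl10 had 2, 3 and 0 reads in DMSO at 6 h and 183, 87 and 144 in thapsigargin. As levels these were 0.061, 0.0934 and 0 CPM against 4.61, 3.02 and 4.08 CPM, a log2 difference of 6.06 ± 0.65 (adjusted p = 7.3e-06). Art3, which overlaps it on the opposite strand, moved the other way, from 1.42 to 3.17 CPM in DMSO to between 0.278 and 0.425 CPM in thapsigargin. Without replicate 2 of DMSO the difference of Cxcl10 stood at 6.67.

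Cxcl12 had 20.5, 24.6 and 18.2 CPM in DMSO at 6 h and 3.53, 2.78 and 2.38 CPM in thapsigargin. It was 7.28-fold lower without overlap (-2.86 ± 0.29, adjusted p = 4.5e-06). Cxcl13 went from 0.793, 1.15 and 0.672 CPM to 0.176, 0.174 and 0.198 CPM (-2.23 ± 0.58, adjusted p = 0.012), on 80 and 19 reads in all. Cxcl5 was at 7.38, 6.66 and 6.01 CPM in DMSO and at 4.49, 4.3 and 3.99 CPM in thapsigargin (-0.65 ± 0.18, adjusted p = 0.013). These groups did not overlap, yet the call for Cxcl5 ended without replicate 1 of DMSO (0.066) or replicate 3 of thapsigargin (0.059), with total counts as the scale (0.26), without a filter on low counts (0.12) and with only the 6 h groups in the model (0.075).

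The response itself differed between 2 h and 6 h for 6 of the 8 genes, tested as the difference between the log2 differences, with 3.99% of all genes called (2.12% up, 1.87% down). It went up for Cxcl10, by 3.97 ± 0.82 (adjusted p = 0.011). It went down for Ccl2 (-2.06 ± 0.43, adjusted p = 0.011), Ccl7 (-1.67 ± 0.25, 0.0014), Cxcl1 (-3.34 ± 0.58, 0.0033), Cxcl5 (-2.46 ± 0.25, 4.8e-05) and Cxcl12 (-2.28 ± 0.39, 0.0031). The median was -2.06 over the 7 genes with reads in all 4 groups, against 0.05 for all genes. With total counts as the scale the calls for Ccl2 (adjusted p = 0.1) and Cxcl12 (0.059) ended, and without replicate 2 of DMSO at 6 h Cxcl10 stood at 4.57. For Cxcl13 the difference was 0.04 and did not pass (adjusted p = 1.0), and its sign turned under 10 of 22 alternatives.

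**Figure D3:**
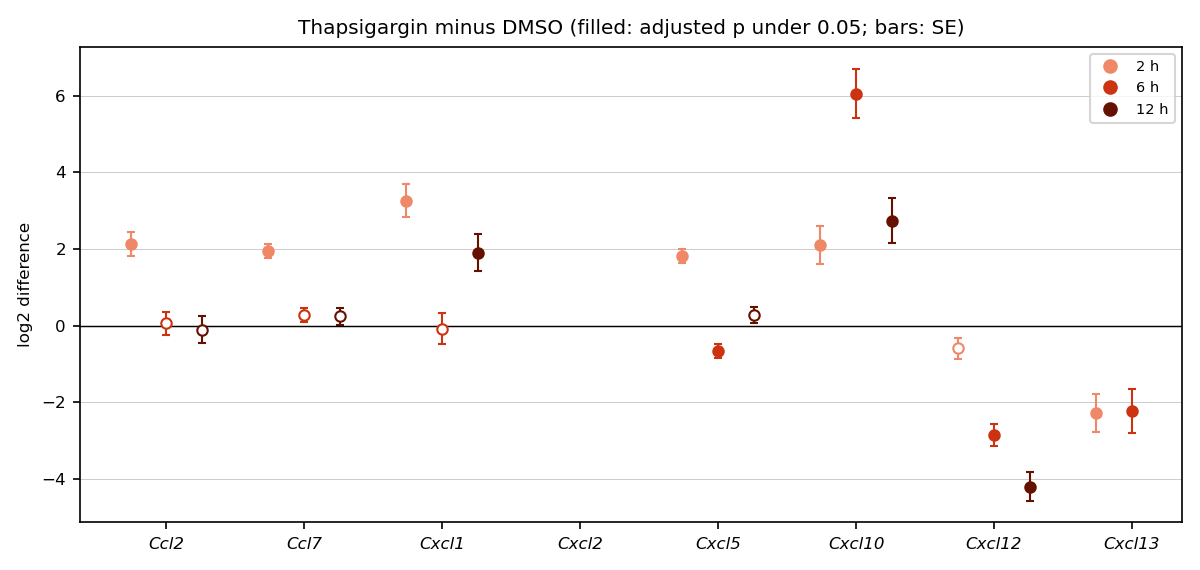
Log2 difference between thapsigargin and DMSO for each gene at 2, 6 and 12 h, with the SE of the model as bars and filled points for an adjusted p under 0.05. Cxcl2 and the 12 h value of Cxcl13 are left out because a group had no read; Cxcl10 is above 0 at each time, and Cxcl12 reaches -4.20 at 12 h.

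At 12 h the means of all genes but Cxcl2 and Cxcl13 were higher than at 6 h in both arms, and 3 of the 8 differed between drug and vehicle. Cxcl1 and Cxcl10 rose and Cxcl12 fell, while 13.1% of all genes tested were called (6.29% higher, 6.77% lower). The median log2 difference was 0.27 over the 6 genes with reads in both arms, against 0.01 for all genes. Cxcl1 stood at 138 and 139.6 CPM in DMSO and 554 and 488 CPM in thapsigargin, 3.76-fold more (1.91 ± 0.49, adjusted p = 0.015). Cxcl10 had 2.71 and 2.81 CPM against 17.5 and 19.4 CPM (2.74 ± 0.58, adjusted p = 0.0042). In both genes each drug library lay above each vehicle library.

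Cxcl12 stood at 343 and 335 CPM in DMSO and at 17.6 and 19.3 CPM in thapsigargin at 12 h, 18.3-fold lower (-4.20 ± 0.37, adjusted p = 1.9e-06). This call held under each of 14 alternatives, from -4.27 to -4.14. Ccl2 (197 and 213 against 183 and 198 CPM) overlapped between the arms, with a difference of -0.10 ± 0.36 (adjusted p = 0.93). Ccl7 (141 and 156 against 171 and 182 CPM) and Cxcl5 (597 and 542 against 764 and 626 CPM) did not overlap, and their differences of 0.25 ± 0.22 and 0.29 ± 0.21 did not pass (adjusted p = 0.57 and 0.47). Cxcl2 had no read in DMSO and 1 and 12 reads in thapsigargin, and Cxcl13 had 5 and 1 reads in DMSO and none in thapsigargin.

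With 2 libraries a group, leaving out any of the 4 leaves 1 in a group. Whether the calls at 12 h rest on single libraries can therefore not be judged. Without single libraries the difference ran from 1.81 to 1.99 for Cxcl1 and from 2.66 to 2.80 for Cxcl10. The call for Cxcl1 ended with total counts as the scale (adjusted p = 0.096). Fitted on the 12 h groups alone, Ccl7 and Cxcl5 passed too (adjusted p = 0.002 and 0.00038). That fit called 62.2% of all genes tested, against 13.1% with all groups, so these calls are not particular to the list.

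Between 6 h and 12 h no gene of the list passed edgeR's test for a difference in response, with 0.571% of all genes called (0.0388% up, 0.532% down). At an unadjusted p under 0.05 there were 4 (Cxcl1, Cxcl5, Cxcl10 and Cxcl12), and DESeq2 called 4. Their differences were 1.99 ± 0.63 for Cxcl1, 0.94 ± 0.27 for Cxcl5, -3.33 ± 0.86 for Cxcl10 and -1.33 ± 0.43 for Cxcl12 (adjusted p = 0.25, 0.19, 0.12 and 0.27). Without the 2 libraries of high mitochondrial share, neither of which is in the groups compared here, all 4 passed (adjusted p = 0.013, 0.013, 0.015 and 0.013). The differences hardly moved (2.0, 0.95, -3.31 and -1.32), and the share of all genes called went from 0.571% to 4.11%.

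For Ccl2, Ccl7, Cxcl1 and Cxcl5 the change between vehicle groups from 6 h to 12 h was larger than the difference between drug and vehicle at any of the 3 times. From 6 h to 12 h of DMSO 6 of the 8 rose and Cxcl13 fell, while 35.4% of all genes tested were called (18.7% higher, 16.7% lower), and the median was 4.67 over the 7 genes with a fold against 0 for all genes. Cxcl5 went from 6.68 ± 0.688 to 569.6 CPM on average, 85.1-fold (6.41 ± 0.22, adjusted p = 6.1e-11). Cxcl1 rose 60.1-fold (5.91 ± 0.49) and Ccl2 25.5-fold (4.67 ± 0.36). Cxcl10 rose 47.2-fold (5.56 ± 0.67), a value that rests on 5 reads in all in DMSO at 6 h. Cxcl12 rose 16-fold (4.0 ± 0.31) and Ccl7 14.0-fold (3.81 ± 0.21), and for none of these 6 did the groups overlap. The sum of the 8 myoblast markers moved from 2709 to 4165 CPM at 6 h to 861 to 876 CPM at 12 h in the same libraries, with the means of 6 markers lower and those of Vcam1 (40.7 to 114 CPM) and Myf5 higher. The 6 markers of differentiated muscle, each lower on average, summed to 43.5 to 84.2 CPM at 6 h and 10.5 to 10.6 CPM at 12 h. Depth went from 31.67 to 33.83 M reads to 19.29 to 21.83 M. The part of these in the chemokine changes was not tested, and 12 h of culture and the set of libraries made at 12 h cannot be told apart.

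Corrected for the trend with exon length, the 12 h values moved by more than 1.5 times for Ccl2 (5.34), Ccl7 (4.61), Cxcl12 (3.37) and Cxcl13, whose call ended (-2.08, adjusted p = 0.076). Cxcl13 fell from 80 reads in 3 libraries to 6 in 2 (-2.74 ± 0.75, adjusted p = 0.015). It stood at -4.14 without replicate 1 of DMSO at 12 h and at -2.09 without replicate 2, and Cxcl10 at 6.18 without replicate 2 of DMSO at 6 h.

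From 2 h to 6 h of DMSO, Ccl2, Cxcl10 and Cxcl13 fell and 5 of the 8 did not pass, while 49.6% of all genes tested were called (24.6% higher, 25.0% lower). Cxcl13 went from 9.32 to 0.872 CPM on average (-3.41 ± 0.53, adjusted p = 0.00033), Cxcl10 from 0.435 to 0.0515 CPM (-2.91 ± 0.69, 0.0034, with 5 reads in all at 6 h) and Ccl2 from 14.7 to 8.04 CPM (-0.87 ± 0.30, 0.026). None of the 3 overlapped between the times. The length trend turned between these groups, from 0.65 to 1.11 at 2 h to between -1.38 and -0.65 at 6 h. Corrected for it, Ccl2 stood at -1.70 and Cxcl13 at -4.34, Ccl7 (-1.30, adjusted p = 7.1e-05) and Cxcl12 (1.09, 0.00042) passed, and Cxcl5 turned from 0.42 (adjusted p = 0.057) to -0.17 without passing. Cxcl5 passed as a rise with a stricter filter (0.45, adjusted p = 0.028), without replicate 2 of DMSO at 2 h (0.58, 0.023) and with DESeq2 (0.40, 0.039). The call for Ccl2 ended without replicate 1 of DMSO at 2 h (0.098), without replicate 3 of DMSO at 6 h (0.11) and with total counts (0.099). Without replicate 3 of DMSO at 2 h Cxcl13 stood at -2.48, and without replicate 2 at 6 h Cxcl10 stood at -3.54. Time in DMSO and the set of libraries made at each time cannot be told apart here either.

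After 48 h without drug, Cxcl5, Cxcl12 and Cxcl13, the genes low under thapsigargin at 6 h, stood higher than in that group. Against it 5 of the 8 rose and Cxcl10 fell, while 25.5% of all genes tested were called (11.6% higher, 13.9% lower), and the median was 1.85 over the 7 genes with a fold against 0.04 for all genes. Cxcl12 had 19.6, 50.7 and 38.7 CPM in recovery, 12.6-fold above thapsigargin at 6 h (3.65 ± 0.30, adjusted p = 5.7e-07). Cxcl5 had 35.5, 33.7 and 36.6 CPM, 8.27-fold more (3.05 ± 0.19, adjusted p = 3.7e-08). Cxcl13 had 0.966, 1.24 and 2.18 CPM (3.0 ± 0.58, adjusted p = 0.0015), and none of these 3 overlapped with the drug group. These 3 are grouped for being low in the same thapsigargin libraries, so their rise is not independent of that fall.

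Ccl7 had 26, 20.8 and 29.1 CPM in recovery and lay above thapsigargin at 6 h without overlap (0.98 ± 0.18, adjusted p = 0.00089). Cxcl1 had 2.66, 12.3 and 8.27 CPM and rose by 1.85 ± 0.41 (adjusted p = 0.0034), with replicate 1 within the range of the drug group. Cxcl10 had 0, 6 and 15 reads, or up to 0.403 CPM, and fell by 4.17 on the log2 scale (± 0.55, adjusted p = 4.7e-05). Ccl2 had 6.84, 17.3 and 19.8 CPM, overlapped with the drug group and did not pass (0.81 ± 0.30, adjusted p = 0.061). Without replicate 1 of recovery, the library with 14.9% mitochondrially encoded RNA, Ccl2 passed (1.13, adjusted p = 0.00081), and without replicate 3 Cxcl10 stood at -5.23. With only these 2 groups in the model the calls for Ccl7 (0.082) and Cxcl1 (0.11) ended.

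Against DMSO at 6 h, a comparison that called 0.327% of all genes tested (0.205% higher, 0.122% lower), Cxcl5 and Ccl7 rose and 6 of the 8 did not pass. This comparison shares the recovery libraries with the one above. Cxcl5 stood 5.27-fold higher in recovery (2.40 ± 0.18, adjusted p = 4.6e-06) and Ccl7 2.39-fold (1.26 ± 0.18, adjusted p = 0.0048), both without overlap. The other differences were 0.88 ± 0.30 for Ccl2, 1.77 ± 0.41 for Cxcl1, 1.89 ± 0.74 for Cxcl10, 0.79 ± 0.27 for Cxcl12 and 0.76 ± 0.51 for Cxcl13 (adjusted p = 0.32, 0.094, 0.4, 0.32 and 0.71). In these 5 genes the groups overlapped through replicate 1 of recovery alone: its other libraries lay above all DMSO libraries. The median was 1.26 over the 7 genes with a fold, against 0.06 for all genes.

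Without replicate 1 of recovery 5 of the 8 rose against DMSO at 6 h, with Ccl2 at 1.20 (adjusted p = 0.014), Cxcl1 at 2.15 (0.0032) and Cxcl12 at 1.08 (0.018) added. Of all genes tested 0.699% were called without that library. With only the recovery and DMSO 6 h groups in the model 0 of the 6 genes tested passed (Cxcl5 adjusted p = 0.12, Ccl7 1.0). In that fit 0 of all 14279 genes passed, so the loss of calls is not particular to the list. With total counts as the scale the call for Ccl7 ended (0.093).

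**Figure D4:**
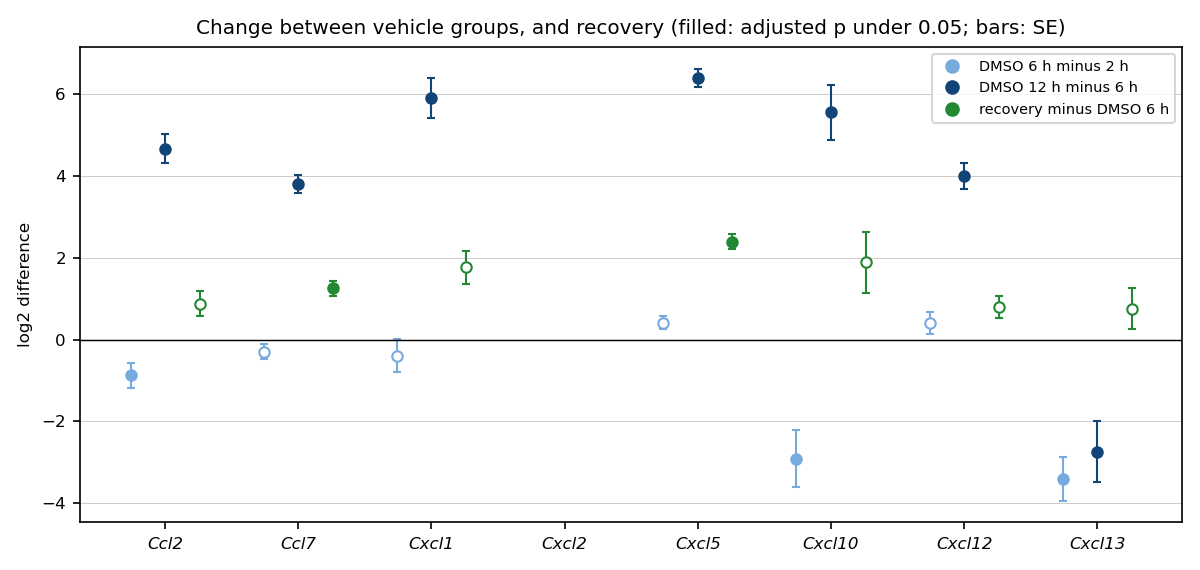
Log2 difference between DMSO at 6 h and 2 h, between DMSO at 12 h and 6 h and between recovery and DMSO at 6 h for each gene, with the SE of the model as bars and filled points for an adjusted p under 0.05. Cxcl2 is left out because no DMSO library had a read of it; the change from 6 h to 12 h of DMSO is the highest point of every other gene except Cxcl13.

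Most other chemokine ligands were at low levels. Cx3cl1, which encodes a membrane-bound ligand also called fractalkine, had the highest mean of them except in thapsigargin at 12 h. There Ccl5 stood at 12.2 CPM and Cx3cl1 at 9.55 CPM. Of 30 ligand genes outside the list 14 were tested, and under the drug 1 fell at 2 h, 4 rose and 2 fell at 6 h, and 1 rose and 1 fell at 12 h. Of all genes tested 4.52%, 21.8% and 13.1% were called at these times. Cx3cl1 fell at each time, from 110.4 ± 9.32 to 46.3 ± 1.36 CPM at 2 h, from 50.0 ± 3.17 to 12.1 ± 0.538 at 6 h and from 27.7 ± 2.26 to 9.55 ± 0.812 at 12 h (adjusted p = 8.1e-05, 1.9e-07 and 2.7e-05). Ccl5, a ligand for T cells and monocytes, rose at 6 h from 0.343 ± 0.301 to 2.74 ± 1.46 CPM (3.01 ± 0.96, adjusted p = 0.033). At 12 h its means were 1.43 CPM in DMSO and 12.2 CPM in thapsigargin, a difference that did not pass the test.

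Several chemokine receptors, those of Cxcl12 among them, were lower under the drug at 6 and 12 h. Of 23 chemokine receptor genes 8 were tested, and 4 fell and 1 rose at 6 h, and 3 fell at 12 h, where 8.80% and 6.77% of all genes fell. The median log2 difference of the 8 was -2.26 at 6 h and -2.38 at 12 h. Cxcr6 went from 1.34 ± 0.206 to 0.162 ± 0.113 CPM at 6 h (-2.97 ± 0.77, adjusted p = 0.01). At 2 h 0 passed edgeR's test, 2 had an unadjusted p under 0.05 and DESeq2 called 1. Cxcr4, the signalling receptor of Cxcl12, fell from 2.92 ± 1.29 to 0.375 ± 0.101 CPM at 6 h (-2.94 ± 0.35, adjusted p = 2.4e-05) and from 3.15 ± 0.0437 to 0.479 ± 0.172 CPM at 12 h (-2.70 ± 0.44, 0.00058). Ackr3, a scavenger receptor that takes up Cxcl12, fell from 66.8 ± 23.3 to 12.6 ± 2.48 CPM at 6 h (-2.40 ± 0.45, 0.0011) and from 39.1 ± 2.96 to 4.6 ± 0.49 CPM at 12 h (-3.09 ± 0.57, 0.0016). In recovery Cxcr4 stood at 5.6 ± 1.66 CPM and Ackr3 at 48.2 ± 29.5 CPM, both higher than in thapsigargin at 6 h (adjusted p = 1.7e-06 and 0.0041).

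All 15 genes of the NF-kB list were tested, and under the drug 3 rose at 2 h, 2 at 6 h and 1 at 12 h, where 3.01%, 13.0% and 6.29% of all genes rose. The counts at 6 and 12 h are near those shares. At 2 h the 3 genes were Nfkbia, Relb and Nfkbie, of which Nfkbia and Nfkbie encode inhibitors that NF-kB itself induces. Nfkbia went from 22.6 ± 6.61 to 82.7 ± 3.8 CPM (1.87 ± 0.25, adjusted p = 0.00032) and Nfkbie from 5.59 ± 1.11 to 12.1 ± 1.33 CPM (1.11 ± 0.18, 0.002). At 6 h Relb and Nfkb2, the subunits of the slower alternative pathway, rose by 2.09 ± 0.38 (0.00095) and 0.87 ± 0.18 (0.0028), and at 12 h Nfkbiz, which encodes a nuclear cofactor, rose by 1.24 ± 0.27 (0.005). The median over the list was 0.34 at 2 h, 0.34 at 6 h and 0.22 at 12 h. In DMSO from 6 h to 12 h 6 of the 15 rose and 1 fell (18.7% and 16.7% of all genes). Bcl3 rose by 2.66 ± 0.38, Rel by 2.16 ± 0.55 and Nfkbiz by 1.92 ± 0.24 on the log2 scale. From 2 h to 6 h of DMSO 6 had fallen and 2 had risen (25.0% and 24.6% of all genes). Mean levels in DMSO at 2, 6 and 12 h were 24.2, 4.76 and 21.4 CPM for Rel and 46.2, 12.5 and 47.1 CPM for Nfkbiz. Those of Bcl3 were 3.47, 2.43 and 15.3 CPM.

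Of 11 interferon regulatory factor and STAT genes 1 rose under the drug at 2 h, 2 rose and 2 fell at 6 h, and 1 fell at 12 h. The shares of all genes called were 4.52%, 21.8% and 13.1%, and the single calls at 2 h and 12 h are too few to be read as a result about the list. Irf1, an activator of interferon-induced genes, rose at 2 h from 10.2 ± 3.95 to 25.3 ± 2.88 CPM (1.31 ± 0.27, adjusted p = 0.011) and fell at 6 h from 25.8 ± 3.93 to 14.2 ± 1.32 CPM (-0.86 ± 0.27, 0.03). Among 9 tested genes for mRNA decay and for enzymes that process chemokines, 1 rose and 3 fell at 6 h, where 13.0% and 8.80% of all genes did. The 1 fall at 12 h, where 6.77% of all genes fell, is too few to be read as a result about the list. At 2 h 0 passed edgeR's test, 2 had an unadjusted p under 0.05 and DESeq2 called 1. Zfp36 and Zc3h12a, which destabilise cytokine mRNAs, fell by 1.25 and 0.97 on the log2 scale at 6 h (adjusted p = 0.034 and 0.00087). Mmp2, a protease that can cleave chemokines, fell at 6 h by 1.07 (0.00028) and at 12 h by 1.49 (0.00016).

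Pearson's r of log2 CPM across the 19 libraries is given as a description, since libraries share their group and depth. It was 0.953 between Ccl2 and Ccl7, 0.968 between Ccl2 and Cxcl1, 0.964 between Ccl7 and Cxcl1 and 0.936 between Ccl7 and Cxcl5. Cxcl1 and Cxcl2, 10.8 kb apart, had 0.551. Cxcl12 had -0.128 with Cxcl10 and 0.67 with Cxcl5, and Cxcl13 was negative with each of the other 7, from -0.616 with Cxcl5 to -0.107 with Cxcl12.

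Among 12039 protein-coding genes, the 1 most like Ccl2 and Cxcl1 over the 19 libraries was Fgfr1op (r = 0.953 for each), which was also the most like Ccl7 (0.92). It stood at 18.3 CPM in DMSO at 6 h and 51.5 CPM in DMSO at 12 h on average. Cxcl5 was most like Adamts5 (0.97), Cxcl10 was equally like Dennd4a and Rbpj (0.958 each), Cxcl12 was most like Neurl1b (0.953) and Cxcl13 most like Pdlim3 (0.975). Dennd4a followed Cxcl10 in being higher under the drug at 2, 6 and 12 h (36.3, 57.0 and 118 CPM against 22.0, 7.36 and 28.6 CPM). Neurl1b, like Cxcl12, was lower under the drug at 12 h, with 27.3 CPM in DMSO and 6.2 CPM in thapsigargin. These genes were picked for their likeness over the same libraries, so such matches follow from the choice and are not a separate result. The highest value for Cxcl2, which had reads in 7 of the libraries, was 0.799 with Ier3.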

How the data were processed

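Counts per gene were deposited by the authors as raw whole numbers, 1 file per library. Per the submitters' processing notes, Trim Galore, STAR 2.5.3a, bedtools 2.31.0 and DESeq2 were used with build mm10. For the counting program, its strand setting and the annotation release, no name is given in the sources used here. Lines for reads assigned to no gene (13.72% to 28.74% of a library's reads) were left out. Of 55401 gene identifiers, 55141 matched GENCODE M21 (GRCm38) by base identifier, which gave symbols, positions and exon lengths (the union of annotated exons).

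All 18039 genes that passed filterByExpr were fitted with edgeR 4.0.16 (R 4.3.3, limma 3.58.1): TMM scaling, 1 mean for each of the 7 groups, quasi-likelihood tests, two-sided, with Benjamini-Hochberg adjustment over all genes tested in a comparison and calls at an adjusted p under 0.05. CPM use TMM-scaled library sizes. The SE is the log2 difference divided by the square root of F. The 2 differences in response are tests of an interaction. A floor of 3 counts per library stands in for a group at 0. Alternatives were RLE size factors, total counts, DESeq2 1.42.0, no filter, a stricter filter (at least 1 CPM in at least 3 libraries), only the groups compared, a replicate block, offsets for exon length with and without the block, leaving out the 2 libraries of high mitochondrial share, and leaving out each library in turn.

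The members, the gene lists and the rules were chosen with earlier results of these data known. All 8 members are named. Of each context list, up to 4 called genes with the largest difference and at least 1 CPM in a compared group could be named. The genes most alike are the 2 highest in Pearson's r of log2 CPM (prior count 2). Sequences come from the RefSeq promoter table (GRCm38.p6). Tables and plots were made with Python 3.11.15, pandas 2.3.3 and matplotlib 3.10.9. Depth sets the precision of low levels: at 12 h, 3 reads are worth 0.13 CPM in DMSO.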

Additional observations from a re-analysis of the deposited data

Results flagged for a closer look

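For 6 of the 8 chemokines the log2 difference between thapsigargin and DMSO was itself different at 6 h and at 2 h, by the test of the interaction (edgeR's quasi-likelihood test with Benjamini-Hochberg adjustment, 3 libraries in each of the 4 groups). Cxcl1 moved furthest down, by -3.34, from 28.8 CPM in thapsigargin against 3.01 in DMSO at 2 h to 2.18 against 2.29 CPM at 6 h. Cxcl5 moved by -2.46, and is the gene of the 6 whose response passed the test in opposite directions at the 2 times. Cxcl12 moved by -2.28, Ccl2 by -2.06 and Ccl7 by -1.67. Cxcl10 moved up by 3.97, with 5 reads in all in DMSO at 6 h.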

How the results depend on the processing

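The 8 genes were followed through 68 results, each with its alternatives, in 1123 recomputed values. Of these, 1016 kept direction and side of the threshold, 46 lost a call, 36 gained one and 25 changed sign. Where a cause is not named here it was not tested.

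The number of the 8 genes called moved with the libraries used. At 2 h it was 4 to 5 without single libraries (7 with all, Cxcl2 included). The share of all genes called there fell too, from 4.52% with all to between 1.78% and 3.72% without single libraries. At 12 h it was 5 with only the groups compared (3 with all). The fit on only those groups called 62.2% of all genes tested, against 13.1% with all. For recovery against DMSO at 6 h (2 with all) it was 1 with total counts, 5 without the 2 high-mitochondrial libraries, 0 with only the groups compared, and 2 to 5 without single libraries. Shares of all genes called were 0.327% with all, 0.0942% with total counts, 2.12% without those 2 libraries and 0% with only the groups compared. Without single libraries they ran from 0.122% to 0.699%. For response at 12 h against response at 6 h (0 with all) it was 4 without those 2 libraries, 1 with only the groups compared and 4 with DESeq2. Of all genes these settings called 4.11%, 0.868% and 2.33%. For DMSO at 6 h against 2 h (3 with all) it was 5 with length offsets, with or without the replicate block, since Ccl7 and Cxcl12 then passed. Of all genes 42.6% were called with length offsets and 38.0% with the block added, against 49.6% with neither.

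Signs turned in the following. Drug against DMSO at 6 h: without single libraries Ccl2 ran from -0.12 (without DMSO replicate 3) to 0.20, Cxcl1 from -0.36 to 0.24 and Cxcl2 from 0.0 to 2.21. Cxcl1 was above 0 with total counts (0.02) and without DMSO replicate 2 (0.24) or thapsigargin replicate 2 (0.06), and Cxcl2 was 0.0 without thapsigargin replicate 1. In recovery Cxcl2, on 2 reads, ran from -1.76 (without recovery replicate 3) to 2.68 against thapsigargin and from 0.0 to 3.39 against DMSO. For response at 6 h against response at 2 h, Cxcl13 was -0.16 with total counts, 0.0 without a filter and -0.98 without those 2 libraries. Without single libraries it ran from -0.89 to 0.36: -0.89 (DMSO 2 h replicate 3), -0.03 (thapsigargin 2 h replicate 1, DMSO 6 h replicate 1), -0.11 (DMSO 6 h replicate 3) and -0.02 (thapsigargin 6 h replicate 3). Between 12 h and 6 h, Ccl2 ran from -0.35 to 0.01 (the latter without DMSO 6 h replicate 3), and Ccl7 from -0.18 to 0.06, with 0.01, 0.05, 0.06, 0.04 and 0.02 without DMSO 6 h replicate 2, thapsigargin 6 h replicate 2 or 3, DMSO 12 h replicate 2 or thapsigargin 12 h replicate 1. Cxcl5 in DMSO at 6 h against 2 h was -0.17 with length offsets and -0.18 with the block added.

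Same-numbered libraries did not deviate together at every time (r = 0.303, -0.608 and 0.391 for the pairs at 6 h), so the numbers were not taken as pairs. With the replicate block 6 of the 8 were called at 2 h, 4 at 6 h and 3 at 12 h, and Cxcl13's response at 6 h against that at 2 h was -0.22, or -0.13 with length offsets too.

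With total counts in place of TMM, the all-gene median under the drug went from -0.04 to 0.17 at 2 h and from 0.01 to 0.14 at 6 h, and the share of higher genes among those called from 66.5% to 90.7% and from 59.6% to 71.3%. That share went from 45.4% to 33.0% for recovery against thapsigargin and from 52.7% to 62.8% for DMSO at 12 h against 6 h, where the median moved from 0 to 0.29. Recovery against DMSO called 59 genes, 17 with total counts, 0 with only the groups compared and 402 with DESeq2.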
